A study of Mus musculus with 12 samples.

Results

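Excitation-contraction calcium handling was examined through 10 named genes of the skeletal muscle triad, out of 20201 genes in the table. They were Cacna1s, Ryr1, Casq1, Casq2, Trdn, Jph1, Jph2, Atp2a1, Atp2a2 and Sln. The list was given by name, with no measured value in its rule, but it was chosen with earlier results of these data known. All 10 symbols were found among the Ensembl identifiers of the table. All 10 also passed the minimum for testing, a mean of 10 normalized counts or more, which 12553 genes passed.

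At the triad, a transverse tubule of the muscle membrane lies between terminal cisternae of the sarcoplasmic reticulum, the calcium store of the fibre. When the membrane depolarizes, the voltage sensor in the tubule opens the ryanodine receptor of the store, calcium bound to calsequestrin is released onto the myofibrils, and SERCA pumps return it to the store. Junctophilins hold the membranes together, triadin anchors calsequestrin near the release channel, and small membrane peptides such as sarcolipin restrain the pump.

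The libraries came from myotubes, the multinucleated muscle cells formed by fusion of cultured myoblasts, here primary cells of mice with a floxed Bmal1 gene. Every culture carried the floxed allele and received an adenovirus for 48 hours, which delivered the Cre recombinase that cuts out floxed DNA or was an empty control virus, and was afterwards held at 21% or 1% oxygen for 6 hours. The sample labels give 6 wildtype libraries in normoxia (21% oxygen) and 6 Bmal1 knockout libraries in hypoxia (1% oxygen), although the design text describes all 4 combinations, so in the labels genotype and oxygen cannot be told apart. By their numbered titles the libraries form 4 blocks of 3: titles 1 to 3 (wildtype) and 4 to 6 (knockout) are called set 1 below, and titles 7 to 9 (wildtype) and 10 to 12 (knockout) set 2. The age and sex of the mice and the number of cultures are not named in the labels, so the spread behind each p-value is one between libraries and can be technical.

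Recovered reads ranged from 6376584 to 12463339 per library. Of these, 49.2% to 65.4% fell on 8 abundant genes. Each was not protein-coding, of no annotated type, or Lars2, and took 1% of reads or more in at least 1 library. The share was 61.4% to 64.0% in wildtype and 52.2% to 61.5% in knockout libraries of set 1. In set 2 it was 49.2% to 52.6% and 55.7% to 65.4%. Wildtype replicate 2, with the fewest reads, had 29.6% of genes at 0, against 13.0% to 21.9% in the others. Arntl, the listed symbol of Bmal1, lay at 133 to 179 normalized counts under the wildtype label and at 41.7 to 48.6 under the knockout label, a log2 difference of -1.78 (exact permutation within sets, two-sided, p = 0.005, the smallest that 400 relabellings allow, adjusted p = 0.011 over 11 genes). Genes that low oxygen induces differed far more between the sets than between the oxygen labels. Egln3, an oxygen-sensing prolyl hydroxylase, lay at 241 to 270 (wildtype) and 194 to 262 (knockout) normalized counts in set 1 and at 2199 to 2258 and 2036 to 2143 in set 2. Slc2a1, the glucose transporter GLUT1, lay at 475 to 553 and 549 to 588 in set 1 and at 3457 to 3514 and 3168 to 3554 in set 2. Neither passed between the labels (exact permutation, adjusted p = 0.0794 and 0.451), nor did Car9 (0.69). Of the other such genes checked, Pdk1 was higher under the knockout label (log2 0.20, adjusted p = 0.0183). Ankrd37 (-0.49, adjusted p = 0.0236) and Vegfa (-0.26, 0.0344) were lower. Each of these genes was higher in every library of set 2 than in any of set 1. The label contrast of each of the 10 genes is therefore given within each set as well as over both. The labels do not give a difference in oxygen between the sets, and whether one existed was not tested, so the comparison of sets below may hold such a difference and none is ascribed to oxygen. Libraries of 1 block are written in the order of their titles.

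The first comparison set the knockout label against the wildtype label, as the mean of the 2 within-set differences. Of the 10 genes, 5 were higher (Casq1, Atp2a1, Casq2, Cacna1s and Ryr1), 4 were lower (Jph1, Sln, Trdn and Jph2) and Atp2a2 did not pass the test. Casq1, the fast-fibre calsequestrin, was 5.32-fold higher, and Jph1, the junctophilin most typical of skeletal muscle, was 3.78-fold lower. Over all genes tested, 16.2% were called higher and 14.5% lower by limma at an adjusted p of 0.05, and the median log2 fold change was 0.18 over the 10 genes against -0.0015 over all. These counts were 2031 and 1826 genes, and became 1003 and 3565 when the 8 abundant genes described above were left out of the scaling. That moved the median of all genes to -0.17, and the 9 called genes kept their direction and their call in that setting. All 6 knockout libraries lay above all 6 wildtype libraries for Casq1, Casq2, Atp2a1 and Cacna1s and below them for Jph1, Jph2 and Trdn, against 12.4% of all genes that were separated in either direction. In these whole-culture libraries, fewer cells of a type and less RNA per cell cannot be told apart.

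**Figure D1:**
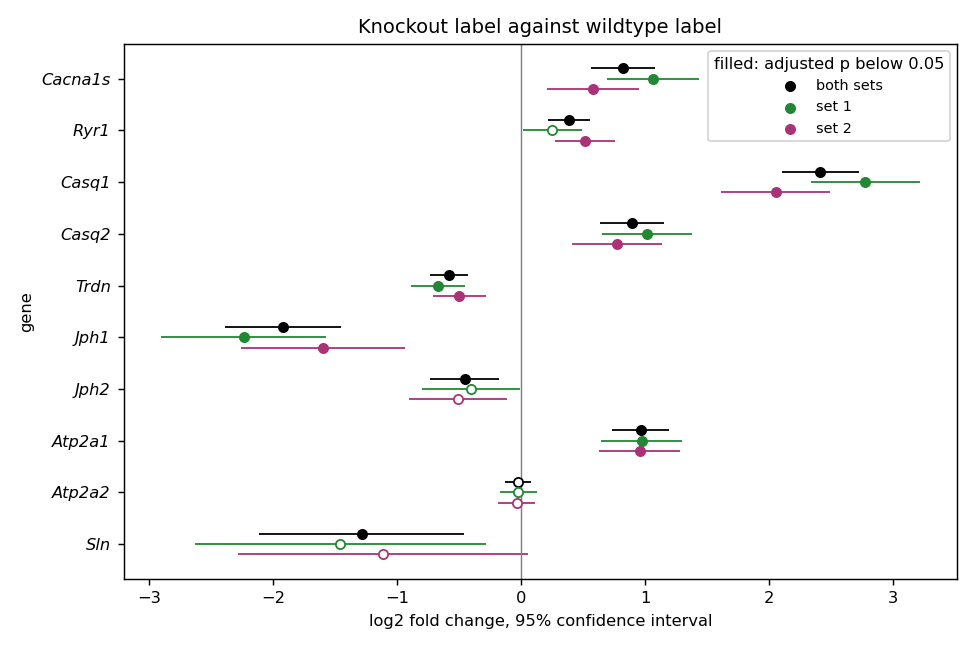
Log2 fold change of the knockout label against the wildtype label for the 10 genes (rows), over both sets, in set 1 and in set 2, from limma on log2(normalized count + 1); points are estimates, lines 95% confidence intervals, and filled points have an adjusted p under 0.05. Casq1 lies at 2.41 and Jph1 at -1.92 over both sets, and Atp2a2 lies at -0.03.

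Within set 1, 4 of the 10 genes were higher (Casq1, Cacna1s, Casq2 and Atp2a1) and 2 lower (Jph1 and Trdn), against 10.8% and 7.97% of all genes. Within set 2, the same 4 and Ryr1 were higher and the same 2 lower, 5 and 2 genes, against 8.84% and 7.64% of all genes. The difference between the sets was itself tested: limma called 0 of the 10 genes, 1 had an unadjusted p under 0.05, and edgeR and DESeq2 also called 0. Over all genes limma called 1 (0.00797%), the mitochondrial gene mt-Co2, with 1070 at an unadjusted p under 0.05. Casq1 had the unadjusted p under 0.05, with a log2 fold change smaller by 0.72 in set 2 (95% confidence interval of the difference -1.34 to -0.10, limma adjusted p = 0.562).

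Results were also computed from the 6 libraries whose hypoxia-induced genes follow their oxygen label, wildtype of set 1 and knockout of set 2, where genotype, oxygen and set change together. In that fit 7 of the 10 genes were called, beside 3088 of the 12553 genes tested (1816 higher and 1272 lower). Jph2 (log2 fold change -0.54, limma adjusted p = 0.11) and Sln (-1.18, adjusted p = 0.0969) were not called. Casq1 rose by 2.51 on the log2 scale in it, Atp2a1 by 1.20, Casq2 by 1.13, Cacna1s by 1.08 and Ryr1 by 0.39, while Jph1 was at -1.68 and Trdn at -0.37. Without wildtype replicate 2, the library with the most genes at 0, the same 9 genes were called over both sets, with Sln at -1.50 and Jph1 at -1.76. Over all genes tested, 4456 were called without that library.

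Promoter sequence was read for 6 of the 10 genes, Cacna1s, Casq1, Casq2, Ryr1, Atp2a1 and Jph2 (RefSeq, build GRCm38.p6, which is mm10, windows of 250 bases before to 50 after a start site). The promoters of Atp2a2, Jph1, Trdn and Sln were not analysed here. Matches to 5 motifs were counted on both strands, and each is a description of letters and not of binding. CACGTG, the E-box that BMAL1 and CLOCK bind, was in 0 of the 6 genes' windows and in 7.15% of 32851 windows genome-wide. ACGTG, the core that hypoxia-inducible factors bind and which lies within CACGTG, was in 0 of 6 as well and in 19.6% of all windows. CAGCTG, an E-box bound by myogenic factors, was in the windows of 4 of the 6 (Cacna1s, Casq1, Atp2a1 and Jph2) and in 16.3% of all windows. The looser E-box CANNTG, which includes both, was in those of 5 of the 6, all but Ryr1, and in 72.3% of all windows. The MEF2 motif was in the Casq2 window and in 3.19% of all. The bases before the start site follow for the 5 genes with a muscle-type match. Of these, 4 were higher under the knockout label and Jph2 was lower. Capitals mark CAGCTG, or the MEF2 match in Casq2.
Cacna1s, chr1:136052561-136052810, plus strand: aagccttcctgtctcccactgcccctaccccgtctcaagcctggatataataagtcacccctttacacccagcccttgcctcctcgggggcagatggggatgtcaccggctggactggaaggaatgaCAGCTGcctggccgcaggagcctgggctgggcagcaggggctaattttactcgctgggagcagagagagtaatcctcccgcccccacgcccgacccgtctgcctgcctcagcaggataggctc
Casq1, chr1:172219896-172220145, minus strand: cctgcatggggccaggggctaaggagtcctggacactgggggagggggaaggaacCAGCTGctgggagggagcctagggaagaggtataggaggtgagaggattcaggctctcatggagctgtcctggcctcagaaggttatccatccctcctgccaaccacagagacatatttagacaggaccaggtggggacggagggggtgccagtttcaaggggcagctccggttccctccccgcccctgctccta
Casq2, chr3:102086165-102086414, plus strand: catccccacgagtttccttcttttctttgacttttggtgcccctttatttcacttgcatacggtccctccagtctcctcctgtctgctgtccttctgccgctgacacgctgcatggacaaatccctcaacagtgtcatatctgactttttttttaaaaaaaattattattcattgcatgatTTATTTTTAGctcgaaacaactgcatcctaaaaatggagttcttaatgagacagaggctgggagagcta
Atp2a1, chr7:126463074-126463323, minus strand: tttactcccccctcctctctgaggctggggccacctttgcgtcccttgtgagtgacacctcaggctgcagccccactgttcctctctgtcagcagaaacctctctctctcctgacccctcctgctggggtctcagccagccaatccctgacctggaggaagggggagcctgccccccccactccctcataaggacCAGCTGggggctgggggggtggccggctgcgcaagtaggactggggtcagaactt
Jph2, chr2:163397994-163398243, minus strand: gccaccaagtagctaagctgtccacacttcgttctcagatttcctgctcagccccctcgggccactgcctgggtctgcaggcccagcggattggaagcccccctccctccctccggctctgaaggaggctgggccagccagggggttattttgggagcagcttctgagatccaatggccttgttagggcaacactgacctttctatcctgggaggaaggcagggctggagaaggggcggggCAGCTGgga
The CAGCTG begins 195 bases before the start site in Casq1, 123 before it in Cacna1s, 55 before it in Atp2a1 and 9 before it in Jph2. Jph2 has a further RefSeq start site nearby, from which the same CAGCTG lies 29 bases upstream. The MEF2 match in Casq2, TTATTTTTAG as read on the gene's strand, begins 69 bases before its start site. The CAGCTG was in windows of genes that rose and of Jph2, the only lower gene with a window. Ryr1, which rose, had no match to any of the motifs in its window. A link between motif and direction was not tested.

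**Figure D2:**
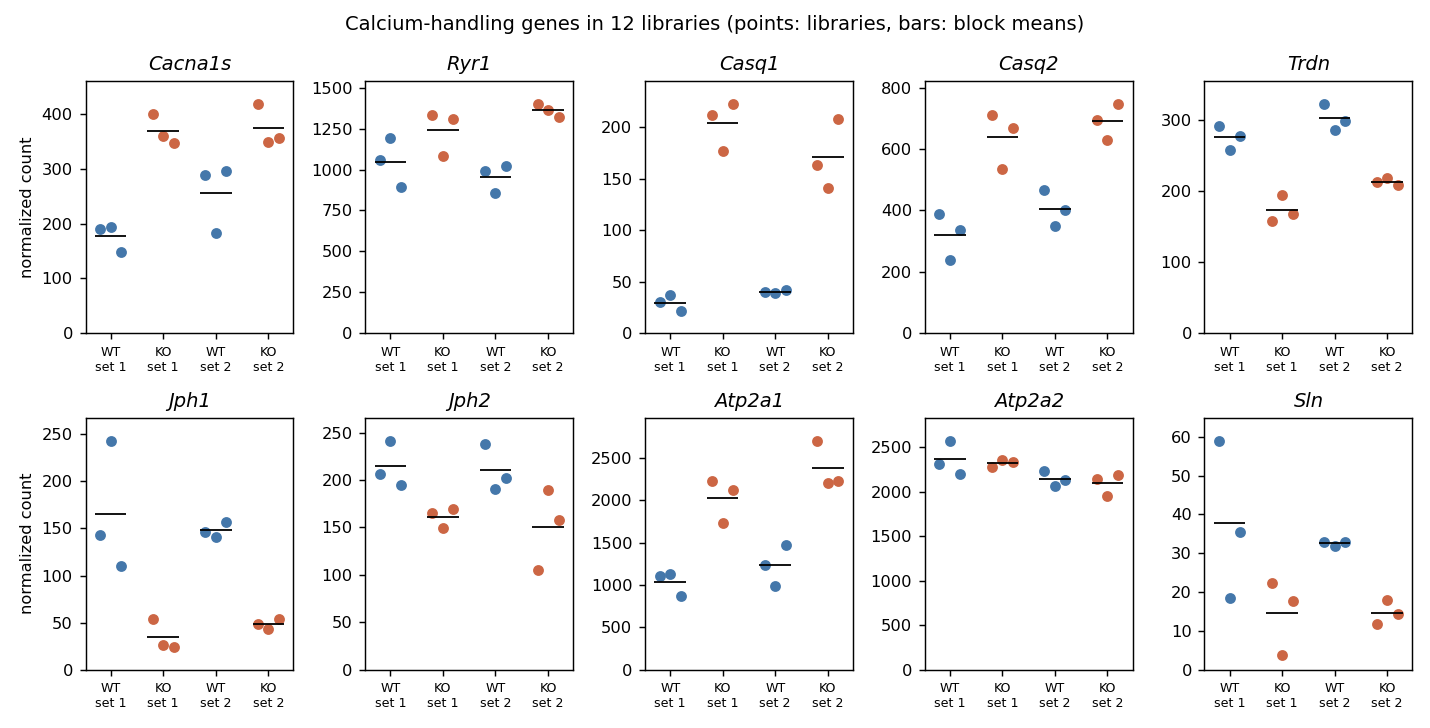
Normalized counts of the 10 genes in 12 libraries; each panel is a gene, each point a library, horizontal bars are means of the 3 libraries of a block, blue marks the wildtype label (WT), orange the knockout label (KO), and every vertical axis starts at 0. Casq1 lies at 21.5 to 41.4 in all wildtype libraries and at 141 to 223 in all knockout libraries, whereas the Atp2a2 points of the labels overlap within each set.

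The voltage sensor and the release channel were both higher under the knockout label. Cacna1s (ENSMUSG00000026407, chromosome 1, 136052750 to 136119822, plus strand, mm10) encodes the pore of the L-type channel that senses the tubule's voltage. Its normalized counts were 190.2, 194 and 149 in wildtype and 401, 361 and 347 in knockout libraries of set 1, and 290.0, 183 and 296 against 419, 350.4 and 358 in set 2. Every knockout library lay above every wildtype library, and the wildtype libraries of set 2 were split, with 2 high and 1 at the level of set 1. The log2 fold change was 0.82 ± 0.12 (SE), a 1.77-fold rise (limma adjusted p = 0.000255), with 1.06 in set 1 and 0.58 in set 2. The call within set 2 (adjusted p = 0.0361) was lost when wildtype replicate 5, the low one, was left out (log2 fold change 0.35, limma adjusted p = 0.12), and likewise without any one of the 3 knockout libraries of that set (adjusted p = 0.0633 to 0.126). It was also lost under upper-quartile scaling (limma adjusted p = 0.051), under quantile normalization (0.0632) and with the 8 abundant genes left out of the scaling (log2 fold change 0.42, adjusted p = 0.112).

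Ryr1 (ENSMUSG00000030592, chromosome 7, 29003344 to 29125179, minus strand) encodes the skeletal ryanodine receptor, the channel through which the store empties. It was at 1056, 1192 and 893 normalized counts (wildtype) and 1336, 1081 and 1309.8 (knockout) in set 1, and at 991, 858 and 1023 against 1402, 1362 and 1325 in set 2. The labels overlapped in set 1 through knockout replicate 2 and were apart in set 2. Over both sets the rise was 1.303-fold (log2 0.38 ± 0.08 SE, limma adjusted p = 0.00267). In set 1 alone Ryr1 did not pass (log2 fold change 0.25, adjusted p = 0.136), in set 2 it did (0.51, adjusted p = 0.00725), and the difference of 0.26 between the sets did not (95% confidence interval -0.08 to 0.60). Set 1 did pass without wildtype replicate 2 (0.35, limma adjusted p = 0.0331) and with the trend in exon length (0.54, adjusted p = 0.001) or gene span (0.41, adjusted p = 0.0113) removed. Under quantile normalization the call over both sets was lost (0.20, adjusted p = 0.0741).

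Both calsequestrins, the high-capacity calcium buffers of the store, were higher. Casq1 (ENSMUSG00000007122, chromosome 1, 172209894 to 172219868, minus strand), the form of fast fibres, was at 29.9, 37.2 and 21.5 normalized counts in wildtype and 212, 177 and 223 in knockout libraries of set 1. In set 2 it was at 39.4, 38.9 and 41.4 against 164, 141 and 208. The highest wildtype library lay far below the lowest knockout library, and the knockout libraries of the sets overlapped. The rise was 5.32-fold (95% confidence interval 4.29 to 6.60, log2 2.41 ± 0.14 SE, limma adjusted p = 1.95e-07).

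Casq2 (ENSMUSG00000027861, chromosome 3, 102086415 to 102146514, plus strand), the form of heart and slow fibres, was at 386, 237 and 335 normalized counts in wildtype and 711, 535 and 667 in knockout libraries of set 1. The values in set 2 were 466, 349 and 401 against 694, 629 and 747. The labels did not overlap, with 466 in the highest wildtype and 535 in the lowest knockout library. Casq2 rose 1.86-fold (log2 0.89 ± 0.12 SE, limma adjusted p = 0.000124), by 1.01 in set 1 and 0.77 in set 2.

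Trdn, by contrast, was lower. It encodes triadin, which links calsequestrin to the ryanodine receptor (ENSMUSG00000019787, chromosome 10, 33080554 to 33476709, plus strand). Its normalized counts were 291, 257 and 277 (wildtype) and 157, 194 and 167 (knockout) in set 1, and 322, 286 and 298 against 213, 219 and 208 in set 2. The labels were apart, and within each label the libraries of a block lay close together. Trdn was 1.501-fold lower (log2 -0.59 ± 0.07 SE, limma adjusted p = 5.4e-05), at -0.67 in set 1 and -0.50 in set 2.

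The junctophilins, which tie the tubule to the store, were both lower over the 2 sets. Jph1 (ENSMUSG00000042686, chromosome 1, 16964560 to 17097889, minus strand) was at 143, 243 and 110.2 normalized counts in wildtype and 53.6, 26.1 and 24.0 in knockout libraries of set 1. Set 2 had 146, 141 and 157 against 48.7, 42.8 and 53.4. Wildtype replicate 2 stood above the rest of its label, and the highest knockout library was still far below the lowest wildtype one. Jph1 was 3.78-fold lower (95% confidence interval 2.74 to 5.23, log2 -1.92 ± 0.22 SE, limma adjusted p = 3.1e-05), at -2.24 in set 1 and -1.60 in set 2.

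Jph2 (ENSMUSG00000017817, chromosome 2, 163336242 to 163397993, minus strand), the form also found in heart, was at 207, 242 and 195 normalized counts (wildtype) and 166, 149 and 169 (knockout) in set 1. In set 2 it was at 238, 191 and 202 against 105, 189 and 158. The labels were apart by a narrow margin, with knockout replicate 5 next to wildtype replicate 5. Over both sets Jph2 was 1.37-fold lower (log2 -0.46 ± 0.13 SE, limma adjusted p = 0.0169), but neither set passed alone (-0.40, adjusted p = 0.14, and -0.51, adjusted p = 0.0752). Both passed with the 8 abundant genes left out of the scaling (limma adjusted p = 0.0368 and 0.0215). Set 1 also passed without knockout replicate 4 (adjusted p = 0.0457), and set 2 without wildtype replicate 2 (0.0462) or knockout replicate 5 (0.025). Knockout replicate 4 is not in set 1, nor wildtype replicate 2 in set 2. In those fits the estimates stayed at -0.40 and -0.51, and only the spread shared by all blocks and the adjustment changed.

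The pumps differed from each other. Atp2a1 (ENSMUSG00000030730, chromosome 7, 126445858 to 126463108, minus strand) encodes SERCA1, the pump of fast fibres. Its normalized counts were 1107, 1131 and 865 (wildtype) and 2223, 1727 and 2122 (knockout) in set 1, and 1240.4, 989.7 and 1474 against 2702, 2200.2 and 2221 in set 2. The labels did not overlap in either set. Atp2a1 was 1.95-fold higher (log2 0.96 ± 0.11 SE, limma adjusted p = 2.86e-05), with 0.97 in set 1 and 0.96 in set 2. Rabep2 overlaps it on the opposite strand at a mean of 57.2 normalized counts, and no source used here says whether strand was used in counting.

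Atp2a2 (ENSMUSG00000029467, chromosome 5, 122453513 to 122502225, minus strand) encodes SERCA2, the pump of slow fibres, heart and most other cells. It was at 2315, 2575 and 2205 normalized counts (wildtype) and 2278, 2353 and 2336 (knockout) in set 1, and at 2239, 2069 and 2137 against 2145, 1953 and 2188 in set 2. The labels overlapped in both sets. The log2 fold change was -0.03 ± 0.05 (SE, 95% confidence interval -0.14 to 0.08, limma adjusted p = 0.679), so a change of the size seen in Atp2a1 lies outside the interval. The call depended on scaling: Atp2a2 was lower under quantile normalization (-0.29, limma adjusted p = 0.000874) and with the 8 abundant genes left out of the scaling (-0.20, adjusted p = 0.0056).

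Sln (ENSMUSG00000042045, chromosome 9, 53850164 to 53854560, plus strand) encodes sarcolipin, a membrane peptide that binds SERCA and uncouples its calcium transport. Normalized counts were 59.0, 18.6 and 35.5 (wildtype) and 22.3, 3.73 and 17.7 (knockout) in set 1, and 32.9, 31.8 and 32.8 against 11.7, 18.0 and 14.3 in set 2. The low wildtype library of set 1 fell among the knockout libraries, and the labels were apart in set 2. These rest on 12 to 67 reads per wildtype library and 3 to 27 per knockout library, with knockout replicate 2 at the 3 reads taken as the floor. Sln was 2.44-fold lower (95% confidence interval 1.38 to 4.33, log2 -1.29 ± 0.38 SE, limma adjusted p = 0.0222), and neither set passed alone (adjusted p = 0.0783 and 0.19). Set 1 passed in 5 of 23 other settings: DESeq2 (adjusted p = 0.0412), the abundant genes left out (0.0449), the exon length trend removed (0.0378), and without wildtype replicate 2 (0.0265) or knockout replicate 1 (0.0495). With 1 library left out, the log2 fold change of Sln ranged from -1.89 to -0.75 in set 1 and from -1.505 to -0.93 over both sets. Without wildtype replicate 1, the highest, the call over both sets was lost (-1.09, limma adjusted p = 0.0521).

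Levels were compared between genes per kilobase of annotated exon. By the mean of the 6 wildtype libraries the order was Atp2a2 (371 normalized counts per kb), Atp2a1 (326), Casq2 (133), Jph2 (49.9), Ryr1 (45.9), Cacna1s (33.1), Jph1 (31.3), Trdn (30.8), Sln (26.6) and Casq1 (17.8). Under the knockout label it was Atp2a1 (633), Atp2a2 (363), Casq2 (243), Casq1 (96.0), Ryr1 (59.6), Cacna1s (56.9), Jph2 (36.7), Trdn (20.6), Sln (11.1) and Jph1 (8.29). Casq1 thus stood last of the 10 in wildtype libraries and above Ryr1 and Cacna1s in knockout libraries, where Jph1 stood last. In wildtype libraries Atp2a2 (340.2 to 424) and Atp2a1 (249 to 424) overlapped, and from Jph2 down to Casq1 every gene overlapped its neighbour in the order. Casq2 (86.6 to 170.3) stood apart from both neighbours. Under the knockout label neighbours overlapped only for Ryr1 with Cacna1s, Trdn with Sln, and Sln with Jph1; Atp2a1 (497 to 777) stood above Atp2a2 (321 to 387), and Casq1 (72.2 to 114) above Ryr1 (49.5 to 64.2). The values of Trdn and Ryr1 depend on the length used, because the merged exons span 9352 and 21838 bases and the longest transcript 4514 and 15358.

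Ratios within a library were taken on normalized count + 1 per kb for the paired forms and are given with no test. Casq1 made up 8.57% to 18.4% of the summed calsequestrin level per kb in wildtype libraries and 24.0% to 31.9% in knockout libraries. Atp2a1 made up 40.7% to 54.7% of the Atp2a1 and Atp2a2 sum in wildtype and 56.2% to 68.8% in knockout libraries. Jph1 made up 32.5% to 46.1% of the junctophilin sum in wildtype and 11.1% to 28.5% in knockout libraries. The label ranges did not overlap for any of these 3 shares, nor for the log2 ratio of Sln to Atp2a1, which had a mean of -3.63 ± 0.60 in wildtype and -5.88 ± 0.72 in knockout libraries (SD, n = 6 each). The difference between labels depended on the pseudocount. For Sln to Atp2a1 it was -2.29 with 0.5 and -1.83 with 10, and for Casq1 to Casq2 1.54 and 1.27.

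**Figure D3:**
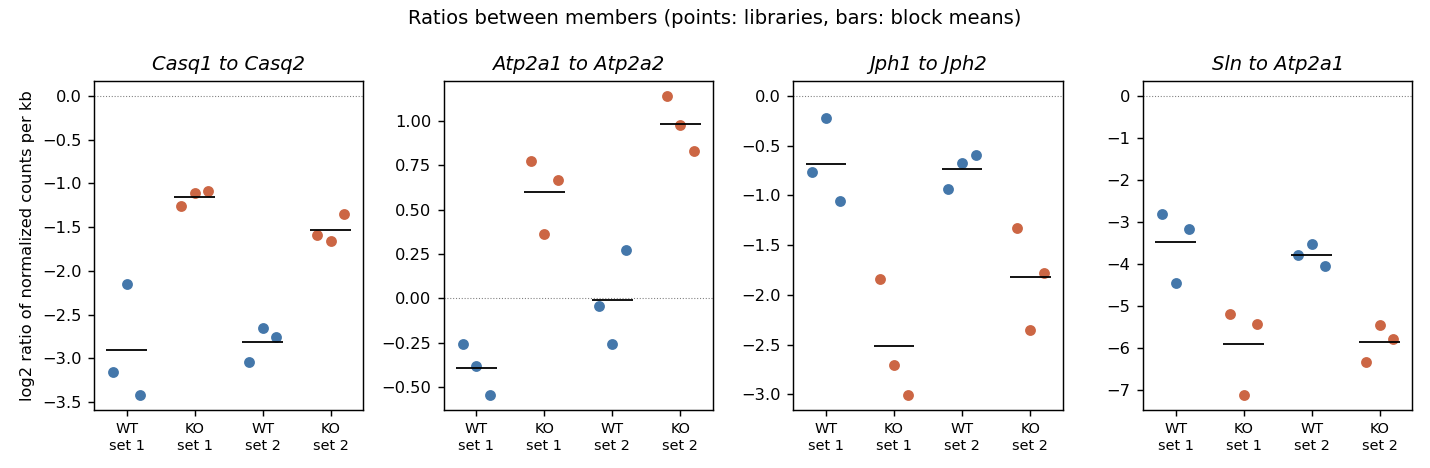
Log2 ratio of normalized count + 1 per kb between paired genes in each of 12 libraries (points). Blue marks the wildtype label (WT), orange the knockout label (KO), bars are means of 3 libraries, and the dotted line is equal levels. The Casq1 to Casq2 ratio lies between -3.42 and -2.15 in wildtype and between -1.66 and -1.09 in knockout libraries.

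Libraries of the same label were then compared between the sets. Among wildtype libraries limma called 0 of the 10 genes, against 16.8% of all genes. At an unadjusted p under 0.05 there were 2, Cacna1s (log2 0.51, adjusted p = 0.0617) and Casq1 (0.46, adjusted p = 0.149), and edgeR and DESeq2 each called 1, Cacna1s. Among knockout libraries 1 of the 10 was called, against 19.0% of all genes: Trdn was higher in set 2 by 0.31 on the log2 scale (limma adjusted p = 0.0494). That call lay at the threshold and was lost in 20 of 24 other settings (limma, edgeR or DESeq2, adjusted p up to 0.392), among them both count models, every other scaling and 10 of the 12 fits with 1 library left out. Where the library left out was a wildtype one, the estimate stayed at 0.31, and only the shared spread and the adjustment changed. In some scalings Atp2a2 was called instead, lower in set 2: in knockout libraries under upper-quartile scaling (-0.23, limma adjusted p = 0.0204), and in wildtype libraries under quantile normalization (-0.32, adjusted p = 0.00584) or with the abundant genes left out (-0.23, adjusted p = 0.025). For Jph1 the knockout difference of 0.56 had a 95% confidence interval from -0.10 to 1.22, so a change as large as that in Trdn is within it.

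**Figure D4:**
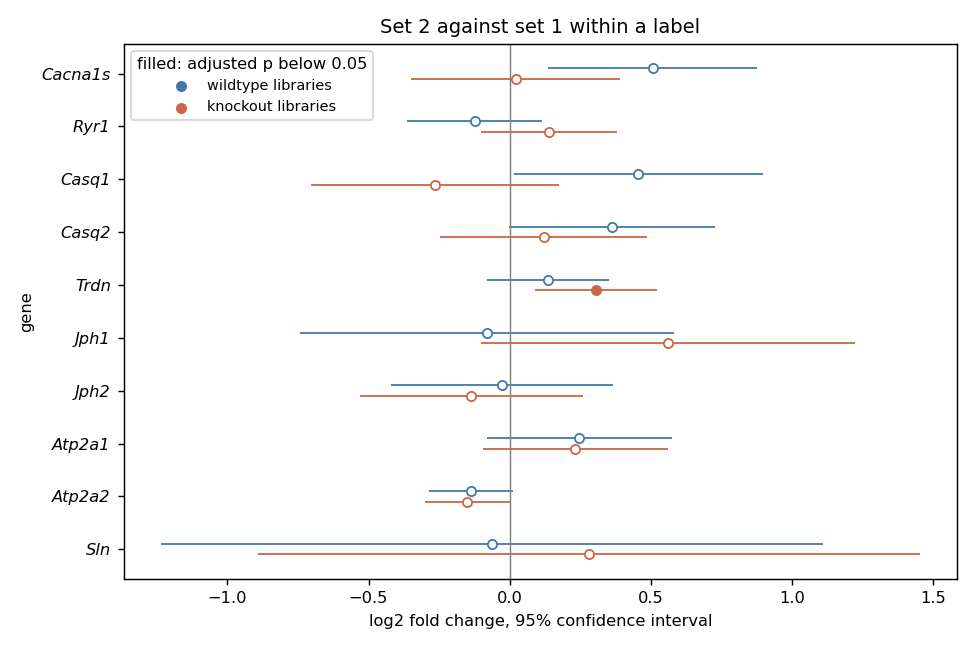
Log2 fold change of set 2 against set 1 for the 10 genes, within the wildtype and within the knockout libraries, from limma; points are estimates, lines 95% confidence intervals, filled points have an adjusted p under 0.05. Trdn in knockout libraries, at 0.31, is the filled point, and the Sln intervals are the widest.

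The rest of the calcium-handling system was read from a list of 106 other genes in 9 roles, of which 102 were in the table and 92 tested. Under the knockout label 26 were higher, 22 lower and 44 did not pass, with a median log2 fold change of -0.0073, beside 16.2% higher and 14.5% lower over all genes tested. Within set 1, 17 were higher and 14 lower, beside 10.8% and 7.97% of all genes tested. Within set 2 they were 18 and 14, beside 8.84% and 7.64%. The counts by role that follow are over both sets, and each role has few genes, so that 1 or 2 calls in a role are near the shares over all genes. In the voltage sensor complex 2 of 7 were higher and 1 lower. Stac2, a channel adaptor, was largest at 1.40 (limma adjusted p = 0.000538). Its labels overlapped, with 13.9 to 93.4 normalized counts in wildtype and 73.4 to 187 in knockout libraries. Stac2 was also higher in set 2 than in set 1, by 1.61 in wildtype (limma adjusted p = 0.00417) and 0.87 in knockout libraries (0.0821). The most abundant, Cacna2d1, an auxiliary subunit, did not pass (-0.11). Among release channels and their partners 6 of 13 were higher and none lower, and the largest rise was that of S100a1, a calcium-binding activator of ryanodine receptors (0.81). In set 1 alone 1 of these, Homer1, a scaffold protein named after its values were seen, was lower (-0.57, limma adjusted p = 0.0126). Homer1 differed more between the sets, higher in set 2 by 1.87 in wildtype and 2.47 in knockout libraries (limma adjusted p = 1.16e-06 and 8.03e-08).

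In the triad and T-tubule list 4 of 11 were higher and 3 lower. Asph, whose products include junctin, was the most abundant and lower (log2 -0.25 over both sets, -0.31 in set 1 and -0.20 in set 2). It differed more between the sets, higher in set 2 by 0.61 in wildtype and 0.72 in knockout libraries (limma adjusted p = 2.07e-05 and 4.07e-06). Tmem38b, a potassium channel of the store, was at -0.81 (limma adjusted p = 0.00436). Of 10 calcium buffers, 8 were higher and 1 lower. Within the sets, 3 were higher in set 1 and 5 in set 2, with 1 lower in each. Several of the 8 rises were small: Calr (log2 0.21), Calu (0.17), Sdf4 (0.17), Canx (0.16) and Pdia3 (0.11), named after their values were seen. Leaving the abundant genes out of the scaling moved the median of all genes to -0.17, a shift of similar size. Hrc, a histidine-rich protein of the store lumen, had the largest change, with 221 ± 22.8 normalized counts in wildtype and 449 ± 47.2 in knockout libraries (SD, n = 6 each; log2 fold change 1.02, limma adjusted p = 3.92e-06), and the most abundant, the chaperone Hspa5, was lower (-0.46).

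Pumps, exchangers and pump regulators had 0 of 9 higher and 5 lower over both sets; in set 2 alone 1 was higher, Atp2b4, a plasma membrane calcium pump named after its values were seen (0.81, limma adjusted p = 0.0433). Pln encodes phospholamban, a SERCA inhibitor related to sarcolipin. It was at 51.9, 37.2 and 43.9 normalized counts in wildtype and 1.65, 1.24 and 0 in knockout libraries of set 1, and at 66.5, 40.3 and 49.96 against 7.80, 5.63 and 1.91 in set 2. The labels did not overlap, 4 of the 6 knockout libraries were at or below 3 reads, and limma called it lower (adjusted p = 4.12e-06). Mrln, which encodes the SERCA inhibitor myoregulin and was chosen after its values were seen, was at 8.41 to 49.6 in wildtype and 0 to 8.58 in knockout libraries, which overlap (limma adjusted p = 0.0198). Wildtype replicate 2 was the highest at 49.6, and 3 knockout libraries were at or below 3 reads. The pump inhibitors Sln, Pln and Mrln were thus all called lower, at low counts. Atp2b1, a plasma membrane calcium pump and the most abundant of the list, was lower as well (-0.56, limma adjusted p = 0.00012).

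In store-operated entry, the route that refills the store from outside, 0 of 8 were higher and 4 lower. Stim1, the calcium sensor of the store, changed most, with 184 ± 11.2 normalized counts in wildtype and 119.6 ± 7.96 in knockout libraries (SD, n = 6 each; log2 fold change -0.62, limma adjusted p = 2.78e-05), and the most abundant, Saraf, its regulator, was at -0.17 (adjusted p = 0.0419). In the mitochondrial uptake list 2 of 9 were higher and none lower, led by Smdt1, a subunit of the uniporter (0.77, adjusted p = 0.00143). The difference between sets of the label contrast was called by limma for 0 of the 92 genes. Among wildtype libraries 11 of the 92 were higher and 4 lower in set 2 than in set 1, beside 16.8% of all genes called in either direction. Among knockout libraries 14 were higher and 5 lower, beside 19.0%.

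**Figure D5:**
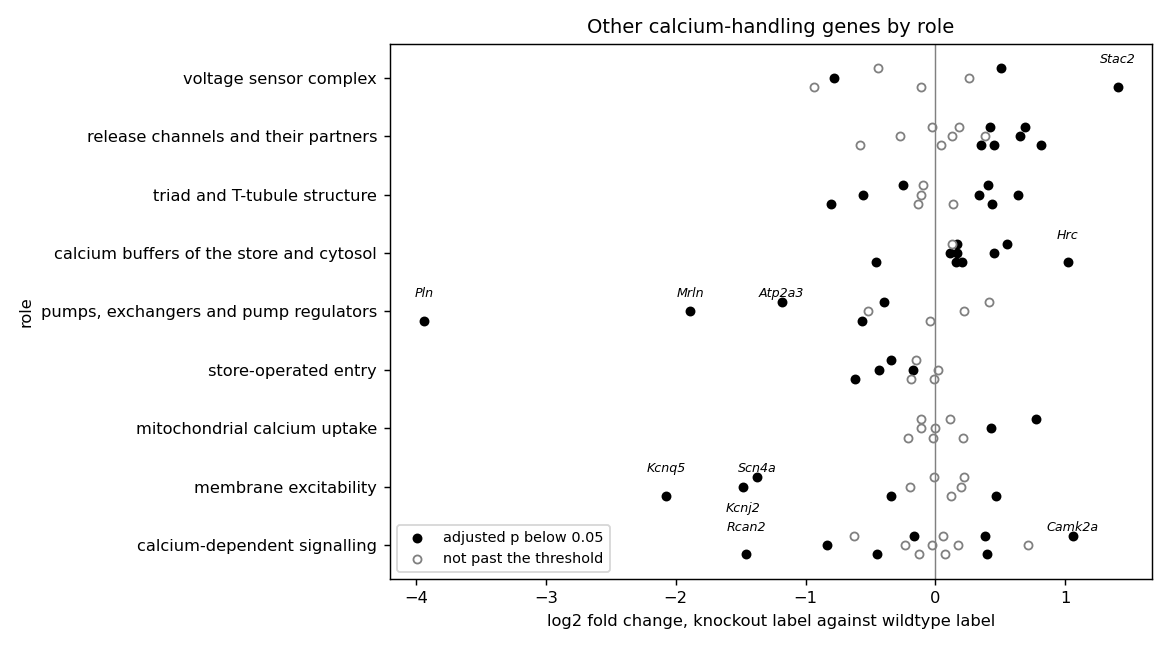
Log2 fold change of the knockout label against the wildtype label for the 92 tested other calcium-handling genes, in rows by role; filled points have a limma adjusted p under 0.05, open points do not, and symbols name the called genes furthest from 0. In the row of pumps and their regulators all 5 filled points lie below 0, with Pln leftmost.

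Myotube markers changed in both directions with the label. Of 10 markers 5 were higher and 3 lower, and their summed level was 20758 to 25835 normalized counts in wildtype and 32986 to 37171 in knockout libraries. Ckm (log2 1.44), Tnnt3 (1.39), Mylpf (1.17), Acta1 (1.16) and Des (1.09) were higher, whereas Myog (-0.51), Ttn (-0.36) and, at the threshold, Neb (-0.28) were lower (limma, each called). Acta1 and Des made up most of the rise in the sum, and Myh3 and Myh8 did not pass. The part of this in the values of Casq1, Casq2, Atp2a1 and Cacna1s was not tested. Of 8 myoblast markers 1 was higher and 3 lower, with sums of 1585 to 1869 and 1432 to 1798. Itga7, which did not pass, made up the largest part of these sums (means of 756 in wildtype and 775 in knockout libraries). Myf5 (means of 61.5 and 8.68, log2 -2.71), Myod1 (146 and 78.2, -0.87) and Megf10 (-0.37) were lower, and Cdh15 (0.27) was higher (limma, each called).

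Markers of other cell types were measured beside them. Of 8 endothelial markers 6 were higher and none lower, with sums of 1057 to 1208 in wildtype and 1462 to 1706 in knockout libraries. Fibroblast markers, 2 of 9 higher and 2 lower, had sums that overlapped between the labels in set 1 (114469 to 124700.0 and 113177 to 124523) and not in set 2 (119862 to 132285 and 140633 to 150309), and collagens made up most of them. Smooth muscle markers were called higher in 2 of 8 and lower in 0, with sums of 7724 to 8175 against 8759 to 9253 in set 1 and 6863 to 7834 against 7998 to 8343 in set 2, and glial ones higher in 1 of 2, while 0 of 2 leukocyte and 0 of 2 adipocyte markers passed by limma. The only cardiomyocyte marker above the minimum was Pln, which the list shares with the pump regulators. The part of these in the members' values was not tested.

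Gene length moved with the label too. The median log2 fold change fell from 0.09 in the shortest of 5 equal classes of genes by genomic span to -0.09 in the longest. Counting the classes from 1 (shortest) to 5 (longest), Sln lies in class 1, Casq1 in class 2, Atp2a1 in class 3, Casq2, Atp2a2, Cacna1s and Jph2 in class 4, and Ryr1, Jph1 and Trdn in class 5. With the trend in span removed from each library, a step chosen after seeing the data, 9 of the 10 genes were called, and likewise with the trend in exon length removed. Over all genes, 3919 were called with the span trend removed and 3891 with the exon length trend removed.

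The genes whose pattern over the 12 libraries was most like each member were found by Pearson's r on log2(normalized count + 1) among 9187 genes whose mean was at least 50 normalized counts. These values describe 12 libraries that share 2 labels and 2 sets, and carry no test. Clptm1 and Slc44a2 were most like Casq1 (r = 0.98 each), Rps15a and Myl1 like Casq2 (0.98 each), and Igf2 (0.98) and Tpm2 (0.97) like Atp2a1. Myh4 and Flnc were most like Ryr1 (0.93 each), and Myom2 (0.97) and Ldhb (0.95) like Cacna1s. For the lower genes they were 1110002E22Rik (0.97) and Fbxo30 (0.96) with Jph1, Coq3 (0.95) and Zup1 (0.93) with Jph2, and Otud1 and Kcnj2 (0.96 each) with Trdn. Rab8b and Galnt7 (0.93 each) were most like Atp2a2, and Sln, below the mean of 50, was not compared. Among the 10 genes themselves r was highest between Atp2a1 and Cacna1s (0.95) and lowest between Casq1 and Trdn (-0.90), whereas that of Atp2a2 with each of the others lay between -0.36 and 0.23.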

How the data were processed

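The 12 libraries were made from total RNA with a stranded kit, per the labels' protocols, and share 1 table of 20201 genes. Its values are normalized counts, a signal which the authors computed from their reads. Trimmomatic 0.33 trimmed the reads, STAR 2.5.2 aligned them to mm10, and they were quantified with RSEM 1.3.3 and normalized with DESeq2, per the submitters' processing notes. The sources used here name no annotation for the counting, so it is taken as not given. Between similar genes, RSEM divides reads by estimate. The deposited values were whole reads divided by 1 factor per library (100% within 1e-06), which gave 6376584 to 12463339 reads per library. Precision at low counts is limited by these depths: the floor of 3 reads equals 2.12 to 5.85 normalized counts and covers counting error only.

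GENCODE M21 named 19970 identifiers (98.9%). Groups were taken from the genotype labels, and sets from the numbered titles. The test was limma 3.58.1 (trended prior, two-sided) on log2(normalized count + 1) in 4 blocks, and p-values were adjusted by Benjamini-Hochberg over the 12553 genes whose mean reached 10; 7648 lay below. This design for normalized values was not changed once whole reads were found. On the log2(value + 1) scale, changes of low genes are understated. The 10 genes, the gene lists and the tests were chosen with earlier results of these data known. Besides the 10 genes, the text names the most abundant and the most changed called gene of each role, and the 2 most similar genes of each member; some of these are not reported here. The steps were tested on simulated data.

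Alternatives were pseudocounts of 0.5 and 10, other filters (none, or a mean of 50), and TMM, upper-quartile and quantile scaling. Another scaling left out the 8 abundant genes. Each was not protein-coding, of no annotated type, or Lars2, and took 1% of reads or more in at least 1 library. Also run were edgeR 4.0.16 and DESeq2 1.42.0 on the recovered reads, no set term and fewer libraries. Removal of length trends was chosen after seeing the data. R 4.3.3 and Python 3.11.15 were used.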

Additional observations from a re-analysis of the deposited data

Results flagged for a closer look

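In groups of 6 libraries, a single library was taken to stand apart when its gap to the nearest other was large against the range of the group, which chance gives in about 1 in 20 groups; the 10 genes were looked at under both labels. Ryr1 in knockout replicate 2 was at 1081 normalized counts, below the other 5 knockout libraries, and the gap was 0.713 of their range. Jph1 in wildtype replicate 2, the library with the fewest reads, was at 243 normalized counts, above the other 5 wildtype libraries, with a gap of 0.648 of the range. Without that library Jph1 stayed lower under the knockout label (log2 fold change -1.76, limma adjusted p = 1.18e-05).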

How the results depend on the processing

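Over both sets, Casq1, Casq2, Atp2a1, Cacna1s, Jph1 and Trdn kept their direction and call in all 26 settings run, and the count of called members stayed at 8 to 10 outside the fit on 6 libraries. With the label alone and no set term, 2416 genes were called, and with 1 library left out 3111 to 4456 were. For the label contrast in set 2, leaving out 1 library in turn gave 1190 to 3082 genes. The lowest count came without wildtype replicate 4 and the highest without wildtype replicate 2, a library of set 1. For the difference between sets, leaving out 1 library gave 1 to 4 genes. A pseudocount of 10, quantile normalization and edgeR gave 0, removal of the span trend 2 and DESeq2 29. Between wildtype sets, quantile normalization and scaling without the abundant genes each called 1 member, Atp2a2, lower in set 2, edgeR and DESeq2 each called 1, Cacna1s, higher, and leaving out 1 library called 0 to 2. Between knockout sets, 0 members were called with a pseudocount of 10, no filter, TMM scaling, edgeR or DESeq2, and 0 to 1 with 1 library left out; under upper-quartile and quantile scaling, with the abundant genes left out and with either length trend removed, Trdn lost its call and the 1 member called was Atp2a2, lower in set 2. With a minimum mean of 50, Sln was not tested.

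Of 1454 member values recomputed, 44 changed sign, and 0 of these were called in either setting. Between knockout sets Cacna1s was at -0.057 (upper-quartile), -0.064 (quantile), -0.067 (abundant genes left out), -0.0062 (edgeR), -0.031 (exon length trend removed) and -0.052 (span trend removed), Sln at -0.050 (edgeR) and -0.012 (DESeq2), and Ryr1 at -0.021 (exon length trend removed). For the difference between sets, Atp2a2 was at 0.096 (quantile), and Atp2a1 at 0.029 (quantile), 0.020 (exon length) and 0.014 (span). With the exon length trend removed, the label contrast of Atp2a2 was 0.027 over both sets, 0.050 in set 1 and 0.0041 in set 2, and with the span trend removed 0.029, 0.049 and 0.0083. With 1 library left out, the Atp2a2 label contrast ranged from -0.055 to 0.0012 over both sets, -0.073 to 0.039 in set 1 and -0.069 to 0.013 in set 2. The difference between sets ranged from -0.16 to 0.12 for Atp2a1, -0.076 to 0.036 for Atp2a2, -0.29 to 0.13 for Jph2 and -0.37 to 0.78 for Sln. Between knockout sets it ranged from -0.060 to 0.082 for Cacna1s, -0.0017 to 0.20 for Casq2, -0.32 to 0.10 for Jph2 and -0.43 to 0.72 for Sln, and between wildtype sets from -0.33 to 0.24 for Jph1, -0.12 to 0.059 for Jph2 and -0.48 to 0.33 for Sln. The cause was not tested.

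No paired analysis was possible because the replicate numbers follow accession order and the labels pair no libraries across groups. Sln, at 3 to 67 reads per library, is the member whose precision depth limits most.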

Other observations

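Genes of membrane excitability, which carry the action potential that triggers calcium release, had 1 of 10 tested members higher and 4 lower under the knockout label. Over all genes tested, 16.2% were higher and 14.5% lower. Kcnq5, a voltage-gated potassium channel, changed most, with 37.7 ± 8.69 normalized counts in wildtype and 10.8 ± 9.50 in knockout libraries (SD, n = 6 each; log2 fold change -2.07, limma adjusted p = 0.00231). Kcnj2, the inward rectifier that sets the resting potential, was at 359 ± 74.8 and 129.6 ± 35.8 (log2 -1.49, limma adjusted p = 7.54e-08).

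Calcium-dependent signalling genes had 3 of 15 higher and 4 lower, beside the same 16.2% and 14.5% of all genes tested. Ppp3r1, the regulatory subunit of calcineurin and the most abundant of the list, was slightly lower (log2 -0.16, limma adjusted p = 0.0324). Rcan2, a calcineurin inhibitor, changed most among those called, with 42.8 ± 12.3 normalized counts in wildtype and 14.8 ± 4.25 in knockout libraries (SD, n = 6 each; log2 fold change -1.46, limma adjusted p = 0.00044).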
